A study of Saccharomyces cerevisiae with 60 samples.

Results

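The loci described here are 4 stretches of the budding yeast genome at which strains that served as chromatin immunoprecipitation (ChIP) controls differed most in background. They hold 8 of the 5215 open reading frames (ORFs) and 4 of the 5174 intergenic regions that were measured, 12 of 10389 features in all: OLE1 with ERV14, AHP1 with CCW12, TIM23 with RCF2, and PBI2 with HEF3, each pair with the DNA between its ORFs. The members were picked from measured values, namely from the differences among control strains that carry a tagged LexA protein and strains without a tag. Those differences are therefore given first as a description, with no test. The choice may also have drawn on the G1-arrested control libraries, so comparisons with those are a description too. Tests are given for libraries of strains with a tagged target, which the choice did not use.

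In ChIP, an antibody recovers crosslinked protein with its DNA, and reads that pile up at a locus are taken as binding. Some loci, often strongly transcribed ones, are recovered with almost any antibody or tag and are known as hyper-ChIPable. LexA is a bacterial repressor with no known role at native yeast genes, so a strain that expresses only tagged LexA shows which native loci come down with that tag and antibody, while its lexA operators give an internal positive signal.

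The genes at the 4 loci belong to different pathways. OLE1 (YGL055W, chromosome VII, 398628 to 400160) encodes the fatty acid desaturase of yeast, and ERV14 (YGL054C, 400871 to 401287) encodes a cargo receptor of COPII vesicles, which carry proteins out of the endoplasmic reticulum. AHP1 (YLR109W, chromosome XII, 368781 to 369311) encodes a thioredoxin peroxidase, and CCW12 (YLR110C, 369697 to 370098) encodes an abundant cell wall mannoprotein. Both of these pairs are convergent, so that their intergenic regions (400161 to 400870 and 369312 to 369696) lie between 3′ ends. TIM23 (YNR017W, chromosome XIV, 662913 to 663581) encodes a subunit of the translocase that imports proteins across the mitochondrial inner membrane, and RCF2 (YNR018W, 664270 to 664944) encodes a respiratory supercomplex factor. PBI2 (YNL015W, chromosome XIV, 605384 to 605611) encodes an inhibitor of the vacuolar proteinase B, and HEF3 (YNL014W, 606319 to 609453) encodes a paralog of translation elongation factor YEF3. In these tandem pairs both genes are on the plus strand, and the intergenic regions (663582 to 664269 and 605612 to 606318) lie upstream of RCF2 and of HEF3. Coordinates are those of the S288C-based R64 genes in the deposited reference. ChIP counts carry no strand, reads of HEF3 may be shared with YEF3, and a tRNA gene (YNCG0016C, chromosome VII, 401527 to 401598) lies 239 bp beyond ERV14.

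The data comprise 60 libraries in 20 groups of 3. All strains were W303 MATa bar1Δ::hisG. Among strains with a tagged target, Fkh1 (a forkhead transcription factor that also acts at replication origins) carried a 9xMYC or a 3xFLAG tag, and was studied as wild type or as fkh1-dbm, a mutant in DNA binding. Fkh1-FLAG, Fkh1-MYC, fkh1-dbm-FLAG and fkh1-dbm-MYC strains had no LexA construct, while Fkh1-FLAG(FLOP) and Fkh1-MYC(MOP) strains carried a LexA construct with the same tag. Sir2-FLAG(FLOP), Orc1-HA(HOP) and Mcm4-HA(HOP) paired FLOP with the silencing histone deacetylase Sir2, and HOP with the origin recognition subunit Orc1 or the replicative helicase subunit Mcm4. The control strains were MOP (LexA-13xMYC), FLOP (LexA-3xFLAG, labelled FLOPv2x2) and HOP (LexA-3xHA). MOP and HOP expressed LexA from the ADH1 promoter beside a single operator array, FLOP from the stronger TEF1 promoter with duplicated arrays. The integration site was beside ADE2 (chromosome XV) for MOP as well as FLOP, and beside TRP1 (chromosome IV) for HOP. Untagged strains were precipitated with anti-FLAG, anti-MYC or anti-HA. FLOP, MOP, HOP, Fkh1-FLAG(FLOP) and Fkh1-MYC(MOP) were studied both arrested in G1 with the mating pheromone α-factor and unsynchronized. Sir2, Orc1 and Mcm4 strains were studied in G1 only, and the remaining groups unsynchronized only. Unsynchronized HA samples were precipitated with antibodies 12CA5 and 16B12 together and G1 samples with 12CA5 alone, so culture and antibody cannot be told apart for HA. The labels do not say that the 3 replicates of a group were separate cultures, so p-values measure the spread between these libraries, which may be technical.

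Libraries held 2116658 to 44263661 window counts (median 18237294). The untagged anti-MYC libraries were the shallowest and their replicates correlated least (r between 0.653 and 0.775 across features, against 0.837 to 0.970 in all groups other than these and MOP, at 0.799 to 0.820). The highest signal of the integrated constructs at ADE2 was 46.1 to 51.9 in FLOP and 16.2 to 34.6 in MOP, but only 3.48 to 3.79 in Fkh1-MYC(MOP) and 5.41 to 7.59 in G1 Fkh1-MYC(MOP). HOP, with its construct elsewhere, had 4.11 to 7.81 there and G1 Orc1-HA(HOP) 3.41 to 5.06, against 1.01 to 1.92 in groups without a construct. At TRP1 the signal was 1.02 to 1.5 in the G1 libraries labelled Orc1-HA(HOP) and Mcm4-HA(HOP), no higher than the 1.31 to 1.62 of untagged anti-HA. The HOP construct thus gave no visible signal in them. The signal at TRP1 was 7.16 to 11.7 in HOP and 3.0 to 4.42 in G1 HOP. Untagged anti-MYC (3.38 to 8.92) and G1 Fkh1-MYC(MOP) (4.32 to 5.10) were also high at TRP1 without a construct there. These values bear on every comparison of Fkh1-MYC(MOP), Orc1 and Mcm4 strains below. Marker genes set some groups apart as well: LEU2 in HOP, untagged anti-HA and untagged anti-MYC (2.52 to 16.8, against 1.02 to 3.32 in the other groups), URA3 in G1 Orc1-HA(HOP) (8.99 to 11.2, against 0.978 to 2.20) and FKH1 in untagged anti-MYC (2.25 to 5.90, against 1.04 to 3.63). The part of these differences in the results was not tested. Signal here is the authors' count per 50 bp window after a moving median over 10 windows, divided by the 20th percentile of the same library and averaged over a feature, so that 1 is the level of a quiet window.

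In unsynchronized FLAG strains, both ORFs and the intergenic region of the PBI2 locus were brighter with LexA than without a tag, whereas OLE1 and CCW12 were far brighter in the untagged strain. PBI2 had signals of 3.77, 4.49 and 4.36 in the 3 FLOP libraries, against 0.902, 0.821 and 0.924 in untagged anti-FLAG libraries. The PBI2-HEF3 region had 2.3, 2.19 and 2.31 in FLOP, against 0.483, 0.530 and 0.45 in untagged. No library of either group overlapped the other at either feature, and PBI2 had the highest edgeR log2 ratio of FLOP over untagged of 5206 ORFs (2.32). The TIM23-RCF2 region had 1.59, 1.64 and 1.67 in FLOP, against 0.785, 0.671 and 0.622 in untagged (log2 ratio 1.36), and ERV14 averaged 2.70 ± 0.13 in FLOP and 1.22 ± 0.08 in untagged (SD, n = 3 each). The reverse held at CCW12, which had 1.43, 1.88 and 1.62 in FLOP, against 7.19, 6.69 and 8.24 in untagged (log2 ratio -2.17). OLE1, the desaturase gene, had 1.93, 1.90 and 1.95 in FLOP, against 6.28, 4.88 and 5.54 in untagged (log2 ratio -1.53). These are the values that chose the members, and over all features 10.1% were called higher and 15.9% lower in FLOP by the same edgeR fit.

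In the MYC and HA controls a different locus stood out, the ERV14 end of the OLE1-ERV14 region. That region had 2.68, 2.27 and 3.86 in MOP, against 1.32, 1.04 and 1.15 in untagged anti-MYC libraries, and its log2 ratio of 1.43 was the highest of 5157 intergenic regions. In HOP it had 1.39, 1.15 and 1.72, against 0.614, 0.609 and 0.577 in untagged anti-HA libraries, again with the highest log2 ratio of its kind (1.37). MOP replicate 3 stood above the other MOP libraries here, and its lowest companion still exceeded all untagged anti-MYC libraries. CCW12, low in FLOP relative to untagged, ran the other way in MYC: 1.78, 1.59 and 2.05 in MOP, against 0.354, 0.642 and 1.34 in untagged (log2 ratio 1.35), where the first untagged value rests on 13 counts. The TIM23-RCF2 region had 1.5, 1.41 and 1.41 in HOP, against 0.672, 0.655 and 0.843 in untagged (log2 ratio 1.07). PBI2, so bright in FLOP, averaged 1.27 ± 0.23 in MOP and 0.975 ± 0.23 in untagged anti-MYC, and 1.31 ± 0.12 in HOP and 1.06 ± 0.16 in untagged anti-HA (SD, n = 3 each). Over all features, 0.174% were called higher and 0.0676% lower in MOP, and 1.78% higher and 0.685% lower in HOP.

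**Figure D1:**
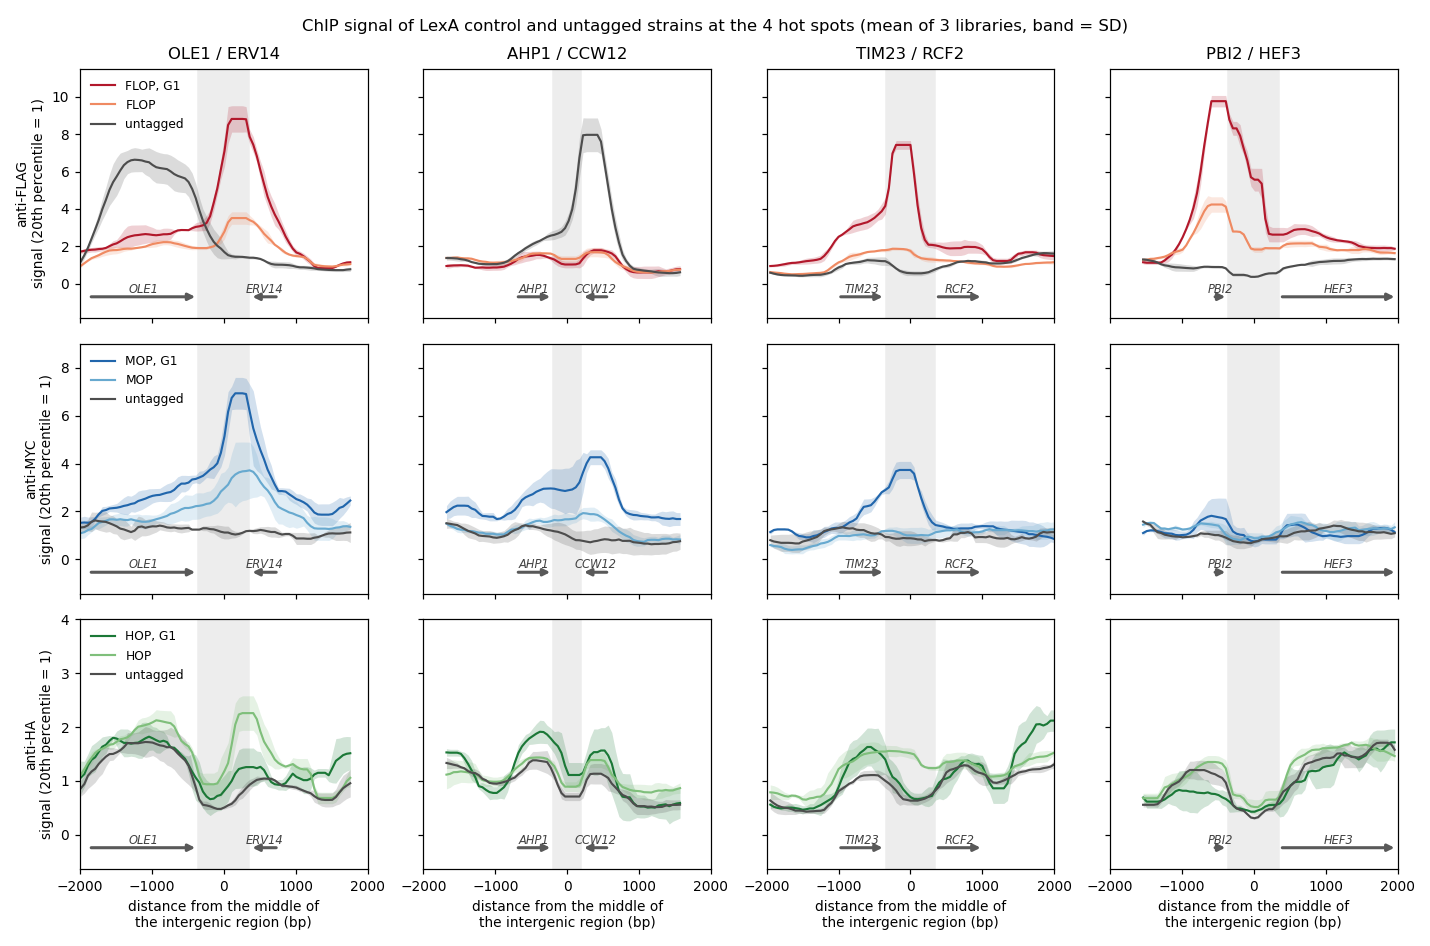
Smoothed ChIP signal (y axis, 20th percentile of the library = 1) against distance from the middle of the intergenic region (x axis, bp) at the 4 loci, for G1 control, unsynchronized control and untagged strains with each antibody; lines are means of 3 libraries, bands are SD, grey shading is the intergenic region, arrows are ORFs and the HEF3 arrow ends at the edge of the plot. Between the outer ends of each ORF pair, the highest window of G1 FLOP is 8.81 near ERV14 and 9.76 over PBI2. That of untagged anti-FLAG is 6.63 over OLE1 and 7.96 over CCW12.

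The profiles of the control strains across these loci show that the same locus can carry peaks at different places. In the untagged anti-FLAG strain the highest smoothed window of the OLE1 locus lay inside OLE1, -1240.5 bp from the middle of the intergenic region, that is to its left. In G1 FLOP it lay 109.5 bp to the right of that middle, and in G1 MOP 159.5 bp to the right, in the DNA downstream of both genes. At the AHP1 locus the peak of untagged anti-FLAG lay in CCW12. Before smoothing, the highest single windows in G1 FLOP reached 12.2 in the OLE1-ERV14 region, 12.2 in the TIM23-RCF2 region and 12.7 over PBI2. Windows were searched only between the outer ends of each ORF pair. The window over PBI2 lay at the left edge of that search, so higher signal upstream of PBI2 would not have been found. The tRNA gene beyond ERV14 had signals of 1.64 ± 0.15 in G1 FLOP and 2.49 ± 0.25 in G1 MOP (SD, n = 3 each), well under the peaks beside it.

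Most hot spots were brighter in G1 than in unsynchronized libraries of FLOP and of MOP, and in HOP the members were divided, again as a description because these are control strains. The TIM23-RCF2 region had 5.06, 5.22 and 5.58 in G1 FLOP, against 1.59, 1.64 and 1.67 in unsynchronized FLOP, the highest log2 ratio of all intergenic regions (1.87). PBI2 had 9.80, 10.04 and 9.44 in G1 FLOP, and the PBI2-HEF3 region 5.27, 5.94 and 6.08 (log2 ratios to unsynchronized FLOP 1.4 and 1.48). The OLE1-ERV14 region had 5.90, 6.79 and 6.21 in G1 FLOP (log2 ratio 1.26). It had 5.17, 4.77 and 5.57 in G1 MOP, against 2.68, 2.27 and 3.86 in unsynchronized MOP (log2 ratio 0.86). CCW12 had 4.25, 4.11 and 3.88 in G1 MOP, above all MOP libraries (log2 ratio 1.23), whereas in G1 FLOP it had 1.66, 1.55 and 1.85, within the range of unsynchronized FLOP. In HOP the TIM23-RCF2 region had 0.874, 0.727 and 0.867 in G1 HOP (log2 ratio to unsynchronized HOP -0.94) and the OLE1-ERV14 region 1.23, 0.835 and 0.695 (log2 ratio -0.68). ERV14 (-0.56), PBI2 (-0.54), the PBI2-HEF3 region (-0.34) and OLE1 (-0.14) were brighter in G1 HOP in 0 of 9 library pairs. AHP1 (0.40) and the AHP1-CCW12 region (0.48) were brighter in G1 HOP in 9 of 9 library pairs, and CCW12 and TIM23 had log2 ratios of 0.17 and 0.09. The median log2 ratio of G1 HOP to HOP was -0.10 over the members and 0.14 over all features. Over all features, 22.1% were called higher and 5.17% lower in G1 FLOP, 21.3% and 5.44% in G1 MOP, and 23.8% and 4.85% in G1 HOP.

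Unsynchronized strains that carry a tagged target beside the LexA construct were also set beside the control with the construct alone. The OLE1-ERV14 region had 1.09, 1.17 and 0.990 in Fkh1-MYC(MOP), against 2.68, 2.27 and 3.86 in MOP, and its log2 ratio of -1.46 was the lowest of 5159 intergenic regions. ERV14 had 1.82, 1.54 and 1.5 in Fkh1-MYC(MOP), against 2.75, 2.46 and 3.87 in MOP (log2 ratio -0.86). PBI2 had 2.66, 2.37 and 2.68 in Fkh1-FLAG(FLOP), against 3.77, 4.49 and 4.36 in FLOP (log2 ratio -0.51). The groups did not overlap at any of these 3 features. Other members were brighter beside the target in 9 of 9 library pairs: the TIM23-RCF2 region (0.77), AHP1 (0.52) and TIM23 (0.30) in Fkh1-MYC(MOP), and CCW12 (0.41), AHP1 (0.40), the TIM23-RCF2 region (0.39), the AHP1-CCW12 region (0.25) and RCF2 (0.22) in Fkh1-FLAG(FLOP). The median log2 ratio over the members was -0.03 in Fkh1-MYC(MOP) and -0.01 in Fkh1-FLAG(FLOP). Because MOP and FLOP helped to choose the members, these ratios are also a description. Over all features, 12.4% were called higher and 2.4% lower in Fkh1-MYC(MOP), and 15.9% and 8.97% in Fkh1-FLAG(FLOP).

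Strains with tagged Fkh1 and no LexA construct show how far the untagged anti-FLAG strain itself stood apart at OLE1 and CCW12. It also did so at some genes outside the 4 loci. YEF3 averaged 8.20 in untagged anti-FLAG and 3.08 in Fkh1-FLAG, and FAS2 4.46 and 1.89, whereas ERV25 had 1.27 and 1.38. OLE1 had 1.53, 1.56 and 1.53 in fkh1-dbm-FLAG and 1.32, 1.4 and 1.36 in Fkh1-FLAG, against 6.28, 4.88 and 5.54 in untagged. Its log2 ratio to untagged was -1.86 in the mutant, second from the bottom of 5207 ORFs, and -2.04 in wild type, the lowest of them. CCW12 had 2.77, 2.99 and 2.68 in fkh1-dbm-FLAG and 2.4, 2.45 and 2.29 in Fkh1-FLAG, against 7.19, 6.69 and 8.24 in untagged (log2 ratios -1.4 and -1.66). With MYC the order was turned round, since CCW12 had 1.89, 1.7 and 2.28 in fkh1-dbm-MYC and 1.61, 1.9 and 1.83 in Fkh1-MYC, against 0.354, 0.642 and 1.34 in untagged (log2 ratios 1.46 and 1.23). The PBI2-HEF3 region had 0.389 to 0.502 in fkh1-dbm-FLAG and 0.304 to 0.408 in Fkh1-FLAG, against 0.45 to 0.530 in untagged, so that it was low in every FLAG library without LexA. It had 0.467 to 0.512 in fkh1-dbm-MYC and 0.284 to 0.550 in Fkh1-MYC, against 0.707 to 0.915 in untagged (log2 ratios -0.83 and -1.08). Untagged libraries chose the members, so no test was made. Over all features, 5.52% were called higher and 9.44% lower in fkh1-dbm-FLAG, 17.6% and 15.6% in Fkh1-FLAG, 3.22% and 4.66% in fkh1-dbm-MYC, and 11.7% and 10.9% in Fkh1-MYC, each over its untagged strain.

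Over the 20 groups, PBI2 ranged most. Its group means ran from 9.76 ± 0.31 in G1 FLOP to 0.574 ± 0.06 in G1 Mcm4-HA(HOP) (SD, n = 3 each), a ratio of 16.99, which ranked 15 among 5205 ORFs. The PBI2-HEF3 region had a ratio of 15.6, the OLE1-ERV14 region 10.5, the TIM23-RCF2 region 9.65, CCW12 9.47 and ERV14 8.30. AHP1-CCW12 (5.61), OLE1 (4.70), AHP1 (4.08), TIM23 (3.46), RCF2 (2.39) and HEF3 (1.80) varied less, and HEF3, the longest ORF of the 12 features, lay in the middle of all ORFs by this measure (rank 2362). In all, 59 of the 240 member-by-group means were 2 or higher. The PBI2-HEF3 region was at or under the fifth percentile of intergenic regions in 11 groups and at or above the 95th percentile in 4, all of them FLAG-tagged strains with FLOP. The highest PBI2-HEF3 means were 5.76 ± 0.44 in G1 FLOP, 4.74 ± 1.01 in G1 Fkh1-FLAG(FLOP), 2.37 ± 0.43 in G1 Sir2-FLAG(FLOP), 2.27 ± 0.07 in FLOP and 1.53 ± 0.13 in Fkh1-FLAG(FLOP), while the highest mean of a MYC or HA group was 0.93 ± 0.14, in G1 MOP (SD, n = 3 each). In that order G1 FLOP overlapped with G1 Fkh1-FLAG(FLOP) in its libraries, G1 Sir2-FLAG(FLOP) overlapped with FLOP, and below Fkh1-FLAG(FLOP) every group overlapped with the next.

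**Figure D2:**
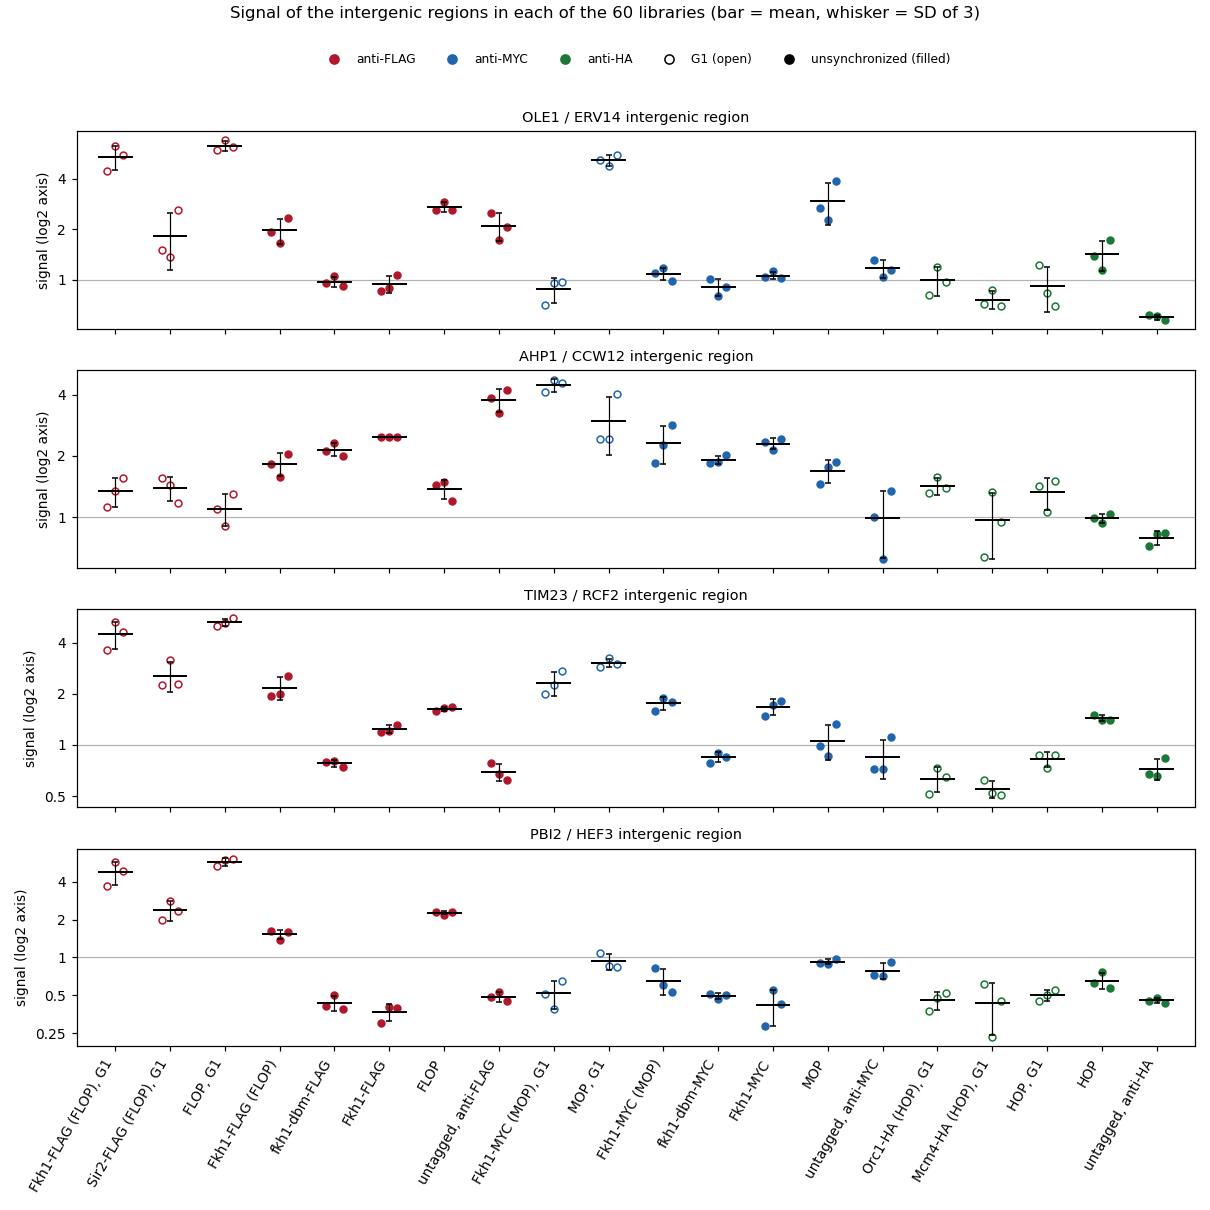
Signal of the 4 intergenic regions (y axis, log2 scale, 20th percentile of the library = 1) in each of the 60 libraries, by group (x axis); points are libraries (open = G1, filled = unsynchronized), bars are means and whiskers SD of 3. FLAG strains with FLOP stand apart at PBI2-HEF3, with means of 1.53 to 5.76, and G1 Fkh1-MYC(MOP) is the highest group at AHP1-CCW12, with a mean of 4.45.

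The first test asked what adding a LexA construct does to the hot spots of a strain that already has a tagged target. With FLAG, the 3 members of the PBI2 locus, the 3 of the OLE1 locus, TIM23 and the TIM23-RCF2 region all rose, and the AHP1-CCW12 region fell. PBI2 had 2.66, 2.37 and 2.68 in Fkh1-FLAG(FLOP), against 0.704, 0.754 and 0.706 in Fkh1-FLAG. The PBI2-HEF3 region had 1.62, 1.38 and 1.59 in Fkh1-FLAG(FLOP), against 0.304, 0.408 and 0.396 in Fkh1-FLAG. Both rose by about the same amount, with edgeR log2 fold changes of 2.03 ± 0.11 and 2.06 ± 0.12 (SE; adjusted p = 6.4e-10 for each, higher in 9 of 9 library pairs), the highest of 5206 ORFs and of 5161 intergenic regions. The OLE1-ERV14 region had 1.94, 1.66 and 2.33 in Fkh1-FLAG(FLOP), against 0.862, 0.892 and 1.07 in Fkh1-FLAG (1.16 ± 0.12, adjusted p = 1.3e-06). ERV14 rose by 1.08 ± 0.11 (adjusted p = 1.3e-06) and the TIM23-RCF2 region by 0.82 ± 0.10 (adjusted p = 8.2e-06). TIM23, OLE1 and HEF3 rose by 0.50, 0.40 and 0.26. RCF2 had 0.25 (adjusted p = 0.092) and was called with TMM (0.28), with DESeq2 (0.28) or without Fkh1-FLAG replicate 3 (0.38). In a 500 bp bin, the same one as for the AHP1-CCW12 region, CCW12 was called lower (-0.34). HEF3 was not called in its own bin. The AHP1-CCW12 region had 1.83, 1.58 and 2.05 in Fkh1-FLAG(FLOP), against 2.47, 2.47 and 2.48 in Fkh1-FLAG, and fell by 0.60 ± 0.09 (adjusted p = 0.00015). In total 8 of 12 members were called higher and 1 lower, against 8.41% higher and 12.6% lower over all features, and the median log2 fold change was 0.45 over the members and -0.02 over all features.

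With MYC, the same addition left all but 1 of the members short of a call. The Fkh1-MYC(MOP) libraries were shallow here, with 5424797 to 5949612 window counts, against 30914037 to 32662282 in Fkh1-MYC. Only ERV14 rose, with 1.82, 1.54 and 1.5 in Fkh1-MYC(MOP), against 1.02, 1.08 and 1.21 in Fkh1-MYC (0.62 ± 0.13, adjusted p = 0.0045, edgeR), and without Fkh1-MYC replicate 1 its adjusted p was 0.059. The OLE1-ERV14 region next to it, the hot spot of MOP itself, had 1.09, 1.17 and 0.990 in Fkh1-MYC(MOP), against 1.04, 1.12 and 1.02 in Fkh1-MYC, and these groups overlapped (log2 fold change 0.06). The 500 bp bin that holds the middle of the region was called higher by edgeR (0.51, adjusted p = 0.013). That bin runs from the middle of the region into ERV14, so it does not measure the region alone. The PBI2-HEF3 region averaged 0.656 ± 0.16 in Fkh1-MYC(MOP) and 0.422 ± 0.13 in Fkh1-MYC (SD, n = 3 each). Its log2 fold change of 0.63 ± 0.21 had an adjusted p of 0.093, and passed the threshold without Fkh1-MYC(MOP) replicate 3 (0.032) or Fkh1-MYC replicate 2 (0.042). The count of 1 of 12 higher and 0 lower stood against 1.48% higher and 2.03% lower over all features. By edgeR 2 members had an unadjusted p under 0.05, and DESeq2 also called 1.

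The difference between the tags was itself tested, as the interaction of tag and LexA construct. It was positive, so that FLAG rose more, at PBI2 (1.74 ± 0.21, adjusted p = 1.6e-06), the PBI2-HEF3 region (1.43 ± 0.25, adjusted p = 0.00025), the OLE1-ERV14 region (1.10 ± 0.17, adjusted p = 7.7e-05) and the TIM23-RCF2 region (0.70 ± 0.15, adjusted p = 0.0027). These 4 of 12 higher and 0 lower stood against 3.53% and 7.51% of all features. With TMM scaling OLE1 (0.32), ERV14 (0.53) and TIM23 (0.48) passed as well. ERV14 also passed without Fkh1-FLAG(FLOP) replicate 2 (0.58), TIM23 without Fkh1-MYC(MOP) or Fkh1-MYC replicate 1 (0.54 and 0.50), and the AHP1-CCW12 region without Fkh1-FLAG(FLOP) replicate 3 or Fkh1-MYC(MOP) replicate 1 (-0.57 and -0.63). FLOP and MOP differ in promoter, number of operator arrays and antibody as well as tag, and these cannot be told apart. The Fkh1-MYC(MOP) libraries were also shallower than those of Fkh1-FLAG(FLOP). Their construct signal at ADE2 was weaker too (3.48 to 3.79, against 17.1 to 38.1). The part of depth and construct signal in the tag difference was not tested.

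**Figure D3:**
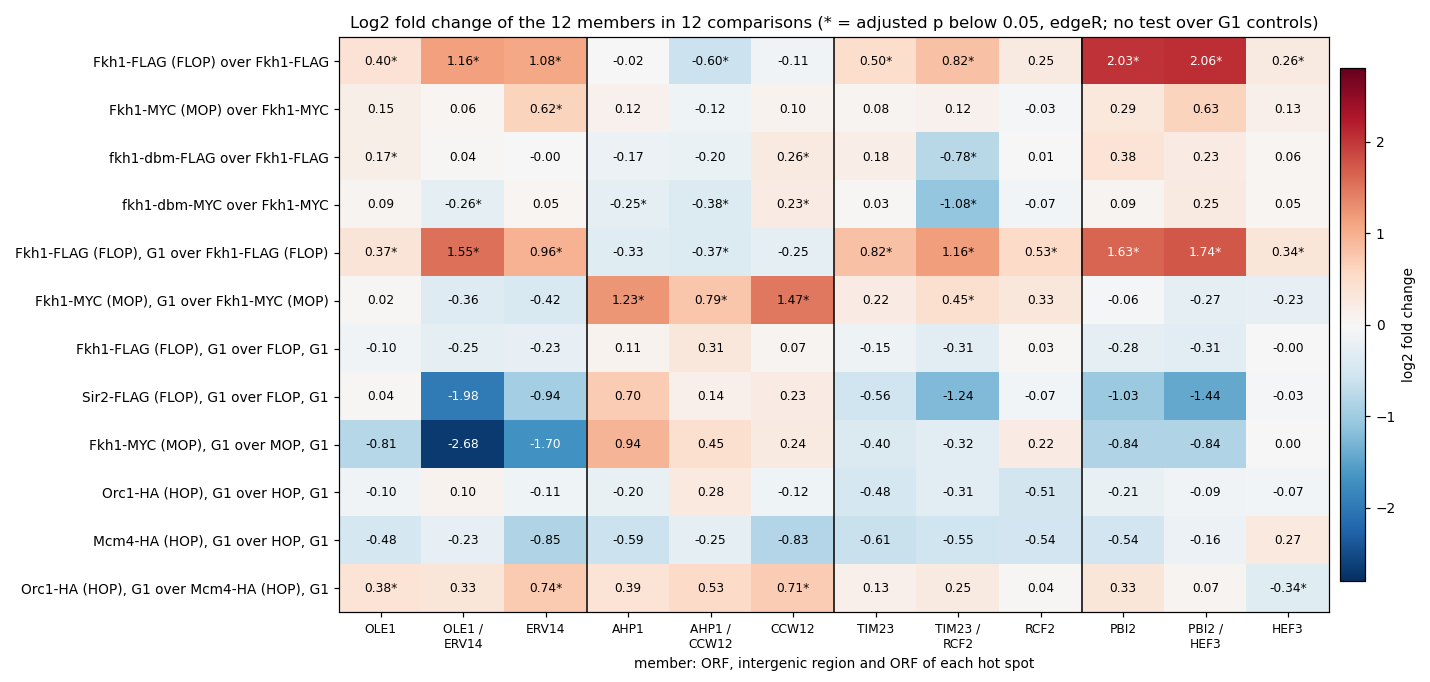
Log2 fold change (color scale and numbers) of each of the 12 members (x axis, in chromosome order within each locus) in 12 comparisons (y axis); asterisks mark edgeR adjusted p below 0.05 and are not given over G1 control strains, where the values are a description. The PBI2 locus is highest where FLOP was added to Fkh1-FLAG (2.03 and 2.06) and the OLE1-ERV14 region lowest in G1 Fkh1-MYC(MOP) over G1 MOP (-2.68).

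The DNA-binding mutant of Fkh1 was compared with wild type in strains without any LexA construct. One hot spot, the region upstream of RCF2, lost signal with both tags. It had 0.794, 0.801 and 0.741 in fkh1-dbm-FLAG, against 1.20, 1.21 and 1.32 in Fkh1-FLAG (-0.78 ± 0.10, adjusted p = 2.4e-08, edgeR), and 0.788, 0.902 and 0.851 in fkh1-dbm-MYC, against 1.48, 1.72 and 1.83 in Fkh1-MYC (-1.08 ± 0.09, adjusted p = 5.3e-16). All mutant libraries lay below all wild-type libraries, and near the untagged anti-FLAG values of 0.785, 0.671 and 0.622. Among 5161 intergenic regions these drops ranked 306 and 311 from the bottom, so many regions fell further. Its neighbors TIM23 and RCF2 were not called with either tag (log2 fold changes between -0.07 and 0.18).

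**Figure D4:**
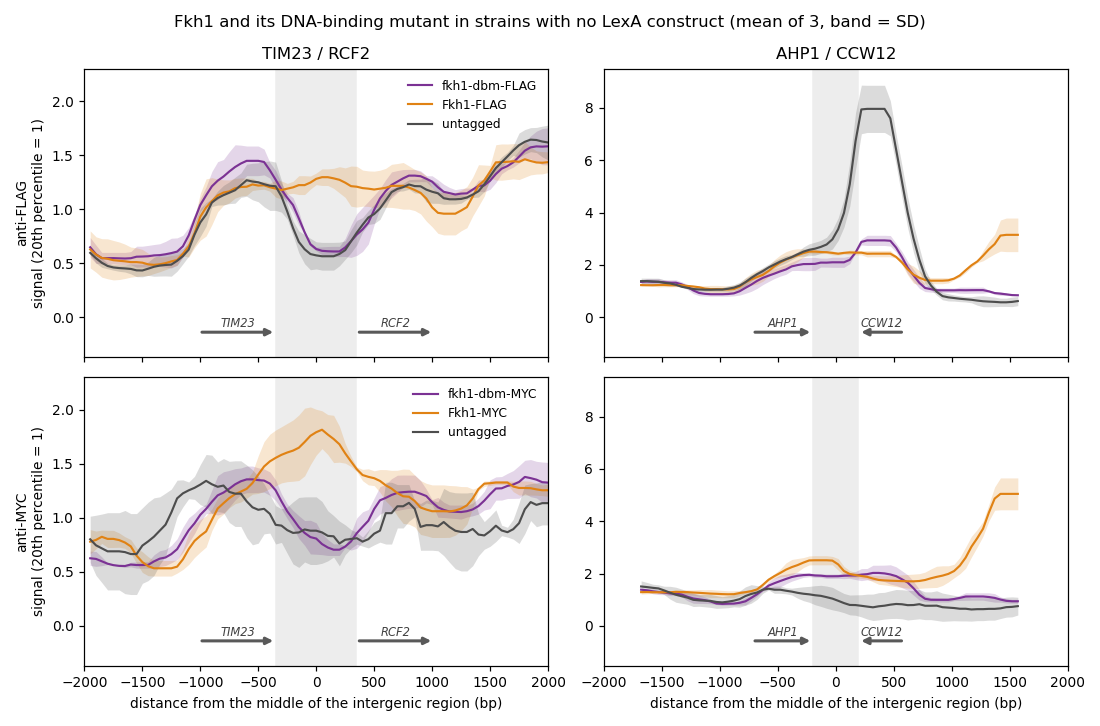
Smoothed signal (y axis, 20th percentile of the library = 1) against distance from the middle of the intergenic region (x axis, bp) in fkh1-dbm, wild-type Fkh1 and untagged strains without a LexA construct; lines are means of 3 libraries and bands SD. Between TIM23 and RCF2 the mutant follows the untagged strain (region means 0.779 with FLAG and 0.847 with MYC) and wild-type Fkh1 lies above it (1.24 and 1.68).

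The other members moved little in the mutant. In fkh1-dbm-FLAG, OLE1 (0.17, adjusted p = 0.023) and CCW12 (0.26, adjusted p = 0.014) were called higher. The OLE1 call was lost without Fkh1-FLAG replicate 1 (adjusted p = 0.081), fkh1-dbm-FLAG replicate 1 (0.065) or replicate 2 (0.078), and the CCW12 call without Fkh1-FLAG replicate 3 (0.056) or fkh1-dbm-FLAG replicate 2 (0.098). PBI2 was called higher without fkh1-dbm-FLAG replicate 1 (0.51), and AHP1 (-0.25) and the AHP1-CCW12 region (-0.27) were called lower without Fkh1-FLAG replicate 1 and fkh1-dbm-FLAG replicate 2, in that order. In fkh1-dbm-MYC, the AHP1-CCW12 region had 1.86, 1.87 and 2.02, against 2.34, 2.15 and 2.41 in Fkh1-MYC (-0.38, adjusted p = 0.00036). In the 500 bp bin that holds the middle of that region the sign turned round (0.11), but the middle of CCW12 lies in the same bin. AHP1 (-0.25), the OLE1-ERV14 region (-0.26) and CCW12 (0.23) were also called. All 3 of those calls were lost without Fkh1-MYC replicate 1 or fkh1-dbm-MYC replicate 3, those of AHP1 and CCW12 without fkh1-dbm-MYC replicate 1, that of CCW12 without Fkh1-MYC replicate 3, and that of the OLE1-ERV14 region without replicate 2 of either group (adjusted p = 0.051 to 0.45). The PBI2-HEF3 region was called higher without Fkh1-MYC replicate 2 (0.47, adjusted p = 0.015). With all 60 libraries in 1 fit, the TIM23-RCF2 region was the only member called in the mutant with either tag. In all, 2 of 12 members were called higher and 1 lower with FLAG, against 9.03% and 16.1% of all features, and 1 higher and 4 lower with MYC, against 14.5% and 26.4%. The comparisons with and without FLOP and with and without the mutation share the Fkh1-FLAG libraries, and those of MYC share the Fkh1-MYC libraries. No member differed between the tags in its response to the mutation by edgeR's interaction test, where 2 members had an unadjusted p under 0.05, 0 passed with TMM scaling, and 3.31% of all features were called higher and 0.0579% lower.

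In Fkh1-FLAG(FLOP), G1 arrest raised 9 members and lowered 1. The OLE1-ERV14 region had 4.44, 6.24 and 5.54 in G1 libraries, against 1.94, 1.66 and 2.33 in unsynchronized ones (1.55 ± 0.14, adjusted p = 2.5e-06, edgeR). PBI2 had 6.90, 9.49 and 7.79 in G1, against 2.66, 2.37 and 2.68 unsynchronized (1.63 ± 0.13, adjusted p = 9.7e-07), and the PBI2-HEF3 region 3.69, 5.71 and 4.82 in G1, against 1.62, 1.38 and 1.59 unsynchronized (1.74 ± 0.13, adjusted p = 6.7e-07). At each of these the lowest G1 library lay well above the highest unsynchronized one, and G1 replicate 2 was the highest. The TIM23-RCF2 region rose by 1.16 ± 0.14 (adjusted p = 2.6e-05), ERV14 by 0.96 ± 0.12 and TIM23 by 0.82, with smaller rises at RCF2 (0.53), OLE1 (0.37) and HEF3 (0.34). The AHP1-CCW12 region had 1.12, 1.35 and 1.55 in G1, against 1.83, 1.58 and 2.05 unsynchronized (-0.37, adjusted p = 0.040). That call was lost without any library but G1 replicate 2 (adjusted p = 0.054 to 0.20), and without that one AHP1 was called lower as well (-0.54, adjusted p = 0.0061). With TMM or DESeq2, AHP1 (-0.41 with each) and CCW12 (-0.32 with each) were called lower. Over all features 14.7% were called higher and 5.18% lower, and the median log2 fold change was 0.68 over the members and 0.08 over all features.

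In Fkh1-MYC(MOP), G1 arrest raised another locus, AHP1 with CCW12. CCW12, the mannoprotein gene, had 5.35, 4.09 and 5.06 in G1 libraries, against 1.66, 1.84 and 2.07 in unsynchronized ones (1.47 ± 0.15, adjusted p = 1.5e-09, edgeR). AHP1 had 4.32, 5.34 and 5.11 in G1, against 2.29, 2.01 and 2.26 unsynchronized (1.23 ± 0.13, adjusted p = 1.1e-09). The region between them had 4.10, 4.70 and 4.55 in G1, against 1.85, 2.27 and 2.83 unsynchronized (0.79 ± 0.17, adjusted p = 0.00040). The groups did not overlap at any of these 3 features. G1 Fkh1-MYC(MOP) had the highest means of AHP1 and of the region between over all 20 groups. Its 95th percentiles over all ORFs (3.13) and all intergenic regions (3.39) were also the highest of any group. The rises of CCW12 and AHP1 ranked 50 and 133 among 5204 ORFs, and that of the region between 487 among 5157 intergenic regions. The TIM23-RCF2 region had 1.99, 2.27 and 2.72 in G1, against 1.59, 1.90 and 1.79 unsynchronized (0.45 ± 0.15, adjusted p = 0.021), a call lost without Fkh1-MYC(MOP) replicate 1 (0.13) or G1 replicate 3 (0.14). Without G1 replicate 1, RCF2 was called higher (0.47) and HEF3 lower (-0.37). The OLE1-ERV14 region had 0.706, 0.953 and 0.977 in G1, against 1.09, 1.17 and 0.990 unsynchronized (-0.36, adjusted p = 0.15), and ERV14 a log2 fold change of -0.42 (adjusted p = 0.090). In this comparison the scaling mattered: the median over all features was 0.18 with the 20th percentile, -0.01 with TMM and -0.04 with the library median. Relative to those medians the 3 features of the AHP1 locus were still called higher, but TIM23-RCF2 was no longer called, and ERV14, the OLE1-ERV14 region and HEF3 were called lower, by DESeq2 too. The count of 4 members higher and 0 lower stood against 28.7% and 6.41% of all features. These edgeR calls compare with 6 members at an unadjusted p under 0.05 in either direction and 6 called by DESeq2.

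The responses of the 2 tagged strains to G1 arrest differed at 11 of 12 members by edgeR's interaction test. The difference, FLAG minus MYC, was 2.0 at the PBI2-HEF3 region (adjusted p = 1.3e-06), 1.90 at the OLE1-ERV14 region (8.9e-08), 1.71 at PBI2 (1.3e-05) and 1.39 at ERV14 (4.3e-06). It was -1.72 at CCW12 (4.3e-08), -1.56 at AHP1 (7.9e-07) and -1.16 at the region between them (0.00018). Over all features 12.2% were called higher and 23.4% lower, and 8 members were higher and 3 lower. The unsynchronized libraries of this test also enter the LexA addition above. As there, promoter, number of operator arrays and antibody cannot be told apart from tag. Construct signal at ADE2 was 57.2 to 145 in G1 Fkh1-FLAG(FLOP), against 5.41 to 7.59 in G1 Fkh1-MYC(MOP). The part of depth and construct signal in these differences was not tested.

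Targets were then set beside the G1 control strain that matches by label, the comparison for which such controls were built. It is a description, because these controls may have helped to choose the members. In G1 Fkh1-FLAG(FLOP) the hot spots lay near those of G1 FLOP. Between OLE1 and ERV14 the signal was 4.44, 6.24 and 5.54 in G1 Fkh1-FLAG(FLOP), against 5.90, 6.79 and 6.21 in G1 FLOP (log2 ratio -0.25). PBI2 had 6.90, 9.49 and 7.79 in G1 Fkh1-FLAG(FLOP), against 9.80, 10.04 and 9.44 in G1 FLOP (-0.28). The groups overlapped at both, and the log2 ratios of all 12 members lay between -0.31 (TIM23-RCF2) and 0.31 (AHP1-CCW12). Over all features 2.79% were called higher and 0.0193% lower.

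G1 Sir2-FLAG(FLOP), whose sample label reads FLOP rather than FLOPv2x2, was dimmer than G1 FLOP at 3 of the 4 intergenic regions. Construct signal at ADE2 was 30.1 to 99.0 in G1 Sir2-FLAG(FLOP), against 101 to 145 in G1 FLOP. The part of that difference here was not tested. Between OLE1 and ERV14 the signal was 1.5, 1.36 and 2.59 in G1 Sir2-FLAG(FLOP), against 5.90, 6.79 and 6.21 in G1 FLOP (log2 ratio -1.98). The PBI2-HEF3 region had 1.97, 2.82 and 2.32 in G1 Sir2-FLAG(FLOP), against 5.27, 5.94 and 6.08 in G1 FLOP (-1.44), and the TIM23-RCF2 region 2.27, 3.15 and 2.28, against 5.06, 5.22 and 5.58 (-1.24). No library of one group reached the other at these regions. PBI2 (-1.03), ERV14 (-0.94) and TIM23 (-0.56) were also lower in 9 of 9 library pairs. AHP1, the peroxidase gene, had 2.44, 2.86 and 1.94 in G1 Sir2-FLAG(FLOP), against 1.32, 1.66 and 1.4 in G1 FLOP (0.70). The AHP1-CCW12 region (0.14), CCW12 (0.23), OLE1 (0.04), HEF3 (-0.03) and RCF2 (-0.07) differed less. Over all features 17.5% were called higher and 12.5% lower. Both FLAG comparisons share the G1 FLOP libraries.

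Beside G1 MOP, the OLE1 locus of G1 Fkh1-MYC(MOP) was dim. Its OLE1-ERV14 region had 0.706, 0.953 and 0.977 in G1 Fkh1-MYC(MOP), against 5.17, 4.77 and 5.57 in G1 MOP, and the log2 ratio of -2.68 was the lowest of 5155 intergenic regions. ERV14 had 1.33, 1.39 and 1.12 in G1 Fkh1-MYC(MOP), against 4.95, 3.56 and 4.35 in G1 MOP (-1.70), and OLE1 had a log2 ratio of -0.81. The groups did not overlap at these features. AHP1 was brighter, with 4.32, 5.34 and 5.11 in G1 Fkh1-MYC(MOP), against 2.28, 2.70 and 3.20 in G1 MOP (0.94), and the AHP1-CCW12 region had a log2 ratio of 0.45, higher in 9 of 9 library pairs. CCW12 had 5.35, 4.09 and 5.06 in G1 Fkh1-MYC(MOP), against 4.25, 4.11 and 3.88 in G1 MOP, groups that overlapped (0.24). PBI2 and the PBI2-HEF3 region both had a log2 ratio of -0.84, TIM23 -0.40 and the TIM23-RCF2 region -0.32, each lower in 9 of 9 library pairs. Over all features 16.7% were called higher and 4.83% lower.

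Beside G1 HOP, the log2 ratios of G1 Mcm4-HA(HOP) were below 0 at every member but HEF3. ERV14 had 0.588, 0.608 and 0.786 in G1 Mcm4-HA(HOP), against 1.32, 0.960 and 1.11 in G1 HOP (log2 ratio -0.85). CCW12 had 0.641, 1.07 and 0.896 in G1 Mcm4-HA(HOP), against 1.09, 1.79 and 1.48 in G1 HOP (-0.83). TIM23 (-0.61), AHP1 (-0.59), the TIM23-RCF2 region (-0.55), RCF2 (-0.54) and OLE1 (-0.48) were also lower in 9 of 9 library pairs, and HEF3 (0.27) was higher in 9 of 9. In G1 Orc1-HA(HOP) the log2 ratios to G1 HOP lay between -0.51 (RCF2) and 0.28 (AHP1-CCW12), and TIM23 had 0.777, 1.12 and 1.3 in G1 Orc1-HA(HOP), against 1.11, 1.73 and 1.38 in G1 HOP (-0.48). Over all features 6.08% were called higher and 9.34% lower in G1 Mcm4-HA(HOP), and 8.79% and 8.18% in G1 Orc1-HA(HOP). Orc1 and Mcm4 share the G1 HOP libraries. Neither target group showed a HOP construct signal at TRP1 (1.02 to 1.5, against 3.0 to 4.42 in G1 HOP). The part of that difference in these ratios was not tested. Values here also rest on few counts, since the 20th percentile was 11 to 16.5 counts per window in G1 HOP.

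Orc1 and Mcm4 strains were tested against each other. By edgeR 3 members were higher in G1 Orc1-HA(HOP) than in G1 Mcm4-HA(HOP), ERV14 (0.74), CCW12 (0.71) and OLE1 (0.38), and HEF3 was lower (-0.34), against 8.27% and 1.34% of all features. CCW12 had 1.22, 1.55 and 1.55 in G1 Orc1-HA(HOP), against 0.641, 1.07 and 0.896 in G1 Mcm4-HA(HOP), and the groups did not overlap. Of these 4 calls 0 remained by edgeR without G1 Orc1-HA(HOP) replicate 2 (adjusted p = 0.062 to 0.13). Each other library left out also ended 1 or more of them. That of OLE1 was further lost with TMM, DESeq2, no filter or a 500 bp bin, that of ERV14 with DESeq2 (adjusted p = 0.051) and that of HEF3 in a 500 bp bin. The AHP1-CCW12 region was called higher without G1 Mcm4-HA(HOP) replicate 2 (0.87) and in the 500 bp bin that it shares with CCW12 (0.68).

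ORFs elsewhere in the genome followed the same patterns across the groups. For each intergenic region the 3 ORFs at least 5 kb away with the highest Pearson r of log2 signal over the 20 group means were taken, as a description over means that share libraries and depth. The PBI2-HEF3 region was most like PHM8 (r = 0.98), MRP17 (0.97) and MVB12 (0.97), and MRP17, which encodes a mitochondrial ribosomal protein, reached 10.7 in G1 FLOP. The TIM23-RCF2 region was most like MMF1 (0.95), YBL044W (0.94) and PXP2 (0.92), the OLE1-ERV14 region like MRP17 (0.87), MRP2 (0.86) and PDR16 (0.86), and the AHP1-CCW12 region like RPS16A (0.92), YLR264C-A (0.92) and POC4 (0.90).

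Genes of the same pathways were counted as a background for the members. Of 52 genes listed by function, 46 were tested: other COPII cargo receptors, fatty acid synthesis genes, cell wall mannoproteins, peroxiredoxins and thioredoxins, TIM23 translocase subunits, respiratory supercomplex genes, vacuolar proteases and their inhibitors, and elongation factors. Where FLOP was added to Fkh1-FLAG, 4 of the 46 were called higher and 12 lower (median log2 fold change -0.05), against 8.41% and 12.6% of all features. In G1 over unsynchronized Fkh1-MYC(MOP), 15 were called higher and 3 lower (median 0.29), against 28.7% and 6.41%. In fkh1-dbm over wild type, 9 were called higher and 6 lower with FLAG, against 9.03% and 16.1%, and 14 higher and 12 lower with MYC, against 14.5% and 26.4%. In G1 Sir2-FLAG(FLOP) over G1 FLOP, 12 were called higher and 2 lower (median 0.19), against 17.5% and 12.5%, and in G1 Fkh1-MYC(MOP) over G1 MOP 10 were called higher and 1 lower (median 0.05), against 16.7% and 4.83%. In FLOP over untagged anti-FLAG, 3 were called higher and 20 lower (median -0.17), against 10.1% and 15.9%.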

How the data were processed

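The deposited values are whole counts of reads per 50 bp window, which the authors made by demultiplexing with fastq-multx, aligning with Bowtie2 to an S288C-based reference carrying the inserted constructs, marking duplicates with samtools and counting with Bedtools. Versions are not given here. A deposited fraction of each window covered was not used. Windows right of the integration sites (chromosome IV beyond 460 kb, XV beyond 560 kb) were left out, because they are not the same sequence in every library.

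Counts were summed over windows whose midpoint lies in an ORF or in an intergenic region of at least 100 bp, and a feature was kept where 3 or more libraries reached 10 counts. Each comparison of 3 with 3 libraries was fitted with edgeR 4.0.16 (quasi-likelihood test, R 4.3.3) on the counts, with library sizes set from the 20th percentile of the smoothed windows and Benjamini-Hochberg adjustment over all features, and called at an adjusted p under 0.05. Comparisons with a G1 control strain, planned as tests, are given as a description, because those controls may have chosen the members. Tag differences were fitted as interactions over 12 libraries. Neighboring windows share reads. All 12 members passed the filter in every comparison and all are reported. Members, functional lists and tests were chosen with earlier results of these data known. The ORFs of like pattern were the 3 with the highest r for each intergenic region.

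On simulated counts with 100 features changed 2-fold, edgeR recovered 100 in Fkh1-FLAG(FLOP) over Fkh1-FLAG and 88 in G1 Fkh1-MYC(MOP) over G1 MOP, of 10389 features. The counts were drawn independently with a common dispersion, and features with low expected counts were not among those changed. Recovery can therefore be lower for real features, and it was not measured at low counts. Alternatives were TMM, library median, DESeq2 1.42.0, no filter, 500 bp bins, all libraries in 1 fit, a 2-fold minimum, the replicate block and leaving out each library. Signals were computed with numpy 2.4.6 and pandas 2.3.3 and plotted with matplotlib 3.10.9.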

Additional observations from a re-analysis of the deposited data

Results flagged for a closer look

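A result stood out where the FLAG and MYC strains responded differently to LexA addition, mutation or G1 arrest by edgeR's interaction test over all features. FLOP and MOP differ in promoter, number of operator arrays and antibody as well as tag, and these cannot be told apart. Each value is the log2 fold change of FLAG minus that of MYC, from 3 libraries a group. For the addition of a LexA construct to a strain with tagged Fkh1, the differences were 1.10 at the OLE1-ERV14 region (adjusted p = 7.7e-05), 0.70 at the TIM23-RCF2 region (0.0027), 1.74 at PBI2 (1.6e-06) and 1.43 at the PBI2-HEF3 region (0.00025). In the FLAG arm each rose in 9 of 9 library pairs.

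For G1 arrest of strains with tagged Fkh1 and a LexA construct, FLAG exceeded MYC by 0.35 at OLE1 (adjusted p = 0.041), 1.90 at the OLE1-ERV14 region (8.9e-08), 1.39 at ERV14 (4.3e-06), 0.60 at TIM23 (0.012), 0.71 at the TIM23-RCF2 region (0.0090), 1.71 at PBI2 (1.3e-05), 2.0 at the PBI2-HEF3 region (1.3e-06) and 0.57 at HEF3 (0.00099). It was below MYC at AHP1 (-1.56, adjusted p = 7.9e-07), the AHP1-CCW12 region (-1.16, 0.00018) and CCW12 (-1.72, 4.3e-08). Only RCF2 was not called. The OLE1 call was lost in 8 of 12 leave-one-out fits, and that of TIM23 without Fkh1-MYC(MOP) replicate 1 (adjusted p = 0.058). With TMM scaling the median difference over all features was 0.03, against -0.09 with the 20th percentile.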

How the results depend on the processing

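Of the member results recomputed under other settings, those over G1 control strains included, 1037 stayed on the same side of the threshold, 44 gained and 34 lost a call. Results with no call in either fit could change sign and still count among the 1037. Of results with a call in either fit, 1 reversed (AHP1-CCW12 in fkh1-dbm-MYC over Fkh1-MYC, -0.38, but 0.11 in the 500 bp bin that it shares with CCW12). The cause was not tested. With single libraries left out 1207 stayed on the same side, 27 gained and 62 lost a call. Counts below are of 12 members, each set against the main count of called members. Counts over G1 control strains are left out, because those comparisons are a description. Requiring a log2 fold change of 1 or more, which is stricter by construction, gave 4 for 9 (Fkh1-FLAG(FLOP) over Fkh1-FLAG), 0 for 1 (Fkh1-MYC(MOP) over Fkh1-MYC), 0 for 3 and 1 for 5 (fkh1-dbm with FLAG and MYC), 4 for 10 and 2 for 4 (G1 arrest with FLAG and MYC) and 0 for 4 (Orc1 over Mcm4). In these comparisons between 0% and 4.81% of all features passed that minimum in one direction. The 500 bp bin of a fixed grid that holds the middle of each feature gave 2 for 1 (Fkh1-MYC(MOP) over Fkh1-MYC) and 2 for 5 (fkh1-dbm-MYC). Such a bin can reach into a neighbor, and CCW12 and the AHP1-CCW12 region have the same bin. All 60 libraries in 1 fit gave 1 for 3 and 1 for 5 (fkh1-dbm with FLAG and MYC). DESeq2 gave 2 for 4 (Orc1 over Mcm4) and TMM 7 for 4 (tag difference in LexA addition). Dividing by the library median left 34 member means of 2 or more, against 59. The causes of these moves were not tested.

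Leaving out each library in turn gave 9 to 10 calls for Fkh1-FLAG(FLOP) over Fkh1-FLAG and 0 to 2 for Fkh1-MYC(MOP) over Fkh1-MYC. It gave 2 to 3 and 2 to 5 for fkh1-dbm with FLAG and MYC, 9 to 11 and 3 to 6 for G1 arrest with FLAG and MYC, and 0 to 4 for Orc1 over Mcm4. The tag differences in LexA addition, mutation and G1 arrest had 4 to 6, 0 to 0 and 10 to 11 calls, and 58 to 61 member means were 2 or more.

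Over all features, 1 fit of all 60 libraries called 708 in place of 2176 (Fkh1-FLAG(FLOP) over Fkh1-FLAG), 175 of 363 (the same with MYC), 971 of 2606 and 2082 of 4244 (fkh1-dbm with FLAG and MYC), 3715 in place of 2228 (G1 Fkh1-MYC(MOP) over G1 MOP), 3009 of 1757, 2571 of 1597 and 1558 of 996 (Orc1, Mcm4, Orc1 over Mcm4), and 246 of 1145 and 43 of 349 for the tag differences in LexA addition and mutation. Bins of 500 bp, with more features tested, called 3690, 729 and 6938 (LexA addition with FLAG and MYC, fkh1-dbm-MYC), 3103 in place of 2063 and 5715 in place of 3637 (G1 arrest with FLAG and MYC), 517 in place of 291 (G1 Fkh1-FLAG(FLOP) over G1 FLOP) and 6396 in place of 3102 (Sir2). Leaving out Fkh1-FLAG(FLOP) replicate 2 gave 1365 (LexA addition) and 1158 (G1 arrest), and replicate 3 gave 1189 (G1 arrest). Leaving out G1 FLOP replicates 1 and 2 gave 1621 and 1467 for Sir2, and replicate 1 gave 189 for G1 Fkh1-FLAG(FLOP). Leaving out an Fkh1-MYC library gave 203 to 211 for LexA addition, and replicate 3 gave 216 for the tag difference in mutation.

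Scaling moved the share of calls that were higher: from the main 40.1% to 51.3% (TMM) and 51.4% (DESeq2) for Fkh1-FLAG(FLOP) over Fkh1-FLAG, 42.1% to 22.5% (TMM), 23.4% (median) and 23.6% (DESeq2) for Fkh1-MYC(MOP) over Fkh1-MYC, 35.5% to 46.0% (DESeq2) for fkh1-dbm-MYC, 74.0% to 51.0%, 62.9% and 52.2% for G1 arrest with FLAG, 81.7% to 53.1%, 49.4% and 55.2% for G1 arrest with MYC, 58.3% to 23.3% (median) for Sir2, 77.6% to 64.4% (median) and 64.8% (DESeq2) for G1 Fkh1-MYC(MOP) over G1 MOP, 51.8% to 65.4% (TMM) and 66.2% (median) for Orc1, 39.4% to 55.2%, 52.5% and 53.1% for Mcm4, 86.0% to 73.3% (DESeq2) for Orc1 over Mcm4, and with TMM 32.0% to 59.98% and 34.3% to 50.1% for the tag differences in LexA addition and G1 arrest. For Sir2 the median log2 fold change over all features was -0.16 with the library median, against 0.07.

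Same-numbered replicates showed no shared deviation that held across the comparisons (correlations from -0.315 to 0.197), so the main fits did not pair libraries by number. In the fit of Fkh1-FLAG(FLOP) over Fkh1-FLAG each library correlated best with its own number. With the replicate block 10 members were called there, against 9, and 4, against 5, for fkh1-dbm-MYC, and 5, against 4, for the tag difference in LexA addition. The block changed no other count of members among the tested comparisons. By total window counts, depth limits the MYC controls most, with Fkh1-MYC(MOP) also shallow: the lowest member count was 13 (CCW12, untagged anti-MYC). The 20th percentile that sets the scale was as low in some G1 groups as in MOP (11 to 15.5 counts per window). It was 8.5 to 15.5 in G1 Fkh1-MYC(MOP), 11 to 16.5 in G1 HOP, 16 to 16.5 in G1 Orc1-HA(HOP) and 17 to 32 in G1 Mcm4-HA(HOP).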
